A study of Mus musculus with 12 samples.

Results

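Zinc-finger protein genes, named Zfp and a number in the mouse, were followed through an H3K9me2 ChIP-seq comparison of prefrontal cortex. Members were the autosomal regions of each of the deposited tables whose gene name began with Zfp and a digit. The gene was the one that the region overlapped, or otherwise the one with the closest transcription start. The table of FAD against WT held 188 such regions in 86 genes, of 33787 regions and 4300 named genes in all. The table of FAD-BIX against FAD held 226 regions in 101 genes, of 43680 regions and 4864 named genes. Together the tables covered 105 Zfp genes, of which 82 were in both. The gene was named by the closest start alone for 95 of the 188 regions and 113 of the 226.

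The mice were C57BL/6 animals aged 5 to 6 months, and the tissue was punched prefrontal cortex. WT mice were wild type, FAD mice carried familial Alzheimer's disease mutations, and the third group, FAD-BIX, were FAD mice treated with BIX01294. This compound inhibits EHMT1 and EHMT2, the enzymes that write H3K9me2. With 2 mice a group, and a ChIP and an input library of sheared chromatin from every mouse, the series has 12 libraries. The labels give no FAD line, no promoter for its transgenes and no dose of BIX01294. Common FAD lines drive their transgenes in neurons from a Thy1 promoter, and the sources used here do not say whether these mice did.

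Zfp genes encode DNA-binding proteins built from repeated zinc fingers, and in many of them 1 last coding exon carries the whole finger array. A large class also carries a KRAB domain, which recruits the corepressor TRIM28 and, through it, enzymes that methylate H3K9, mostly at transposable elements. KRAB-type genes lie in tandem clusters of similar copies, and in several tissues the clusters themselves carry H3K9 methylation. H3K9me2 is a mark of repressed chromatin that tends to form broad domains.

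Total reads were 20.45 to 26.58 M in the ChIP libraries and 13.92 to 23.76 M in the inputs, and the median Zfp region held 10 to 22 ChIP reads in a library. The libraries labelled FAD 1 stood apart, in heart gene reads for the ChIP and in Thy1 reads for both ChIP and input. Summed over the regions of the FAD against WT table, the reads of the FAD 1 ChIP at 5 heart muscle genes with a region, of 12 listed, came to 66.8 RPM (reads scaled to the library total), against 20.4 in FAD 2. The WT libraries had 10.99 and 8.50. Heart genes such as Myh7, Tnnt2 and Nppa had no region. Its reads at Thy1 came to 0.16 RPM, against 40.3 in FAD 2. In the other table they came to 0.80 RPM, against 590 in FAD 2 and 395 and 376 in FAD-BIX. At Thy1 the FAD 1 input had 0.63 and 3.97 RPM in these tables, against 24.1 and 366 in the FAD 2 input. These values do not settle which mouse the libraries labelled FAD 1 came from, and every FAD value of mouse 1 below rests on that label. Results of the comparisons are therefore also given without the FAD 1 ChIP. Marker genes of neurons (3 of 7), astrocytes (1 of 4), oligodendrocytes (1 of 4) and microglia (0 of 4) with a region in the FAD against WT table do not check the tissue, since ChIP of a repressive mark does not measure expression. The part of other tissue in the results was not tested.

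Most Zfp regions were called in a single library, as were most regions of the tables. Of the 188 in the FAD against WT table, 176 (93.6%, against 94.9% of all regions) were called in 1 ChIP library. The other 12 were called in 2 (6.38% against 4.55%). FAD ChIP 2 called 131 of the 188 (69.7%, against 64.7% of all regions). FAD ChIP 1 called 18 (9.57% against 11.6%), and the WT libraries 28 and 23 (14.9% and 12.2%, against 17.4% and 12.2%). Of the 226 in the FAD-BIX against FAD table, 209 (92.5%) were called in 1 library, 16 in 2 and 1 in 3. FAD ChIP 2 again called the most, 130 (57.5%), whereas FAD ChIP 1 called 18 and the FAD-BIX libraries 43 and 53. Most regions thus entered the tables through a call in FAD ChIP 2, and their level in that library is no independent measurement. The 1 region called in 3 libraries lay near Zfp992, in the second intron of a transcript with no symbol (GRCm38, as all coordinates here, chromosome 4, 146437376 to 146438148). It had 51 and 27 ChIP reads in FAD-BIX against 32 and 72 in FAD. The inputs of the same mice held 18 and 3, then 10 and 8, reads.

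The only RefSeq promoter window of a Zfp gene that a member region overlapped was that of Zfp518a, and it is printed because it is the case in which the mark could be read at a Zfp start site. The window is the 250 bases before the RefSeq start (GRCm38.p6, plus strand), and capitals mark each CG.

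Zfp518a, chr19:40894455-40894704: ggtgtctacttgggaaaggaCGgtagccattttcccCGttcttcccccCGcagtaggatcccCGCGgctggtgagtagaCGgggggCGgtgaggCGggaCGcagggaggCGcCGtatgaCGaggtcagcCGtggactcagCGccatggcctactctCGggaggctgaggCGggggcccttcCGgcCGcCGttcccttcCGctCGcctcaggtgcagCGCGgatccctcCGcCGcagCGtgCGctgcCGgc

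The window held 28 CG, which reads the same on both strands, and its GC content was 70.4%. Of 32851 RefSeq promoter windows of this length, 7.61% held as many CG, as did 8.37% of the 406 autosomal Zfp windows, while 92.1% held at least 1. The median Zfp window held 10 CG and the median of all windows 6. The region over it (chromosome 19, 40894448 to 40894842) was in the FAD-BIX against FAD table alone, with 19 and 8 ChIP reads in FAD-BIX against 16 and 8 in FAD. The inputs held 2 and 0 reads in FAD-BIX against 0 and 13 in FAD, so that ChIP exceeded input in 3 of the 4 mice. The ChIP counts of the groups overlapped.

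Zfp regions lay mainly in introns and between genes, and few lay in last exons. The centre of the region was in a last exon for 7 of 188 Zfp regions (3.72%) in the FAD against WT table, against 2.04% of the other autosomal regions. Introns held 96 (51.1% against 24.4%), UTRs 5 (2.66% against 0.408%), other exons 1 (0.532% against 0.748%), and 79 (42.0% against 72.4%) lay between genes. In the other table the last-exon regions numbered 7 (3.10% against 2.08%), intron regions 112 (49.6% against 24.7%) and regions between genes 98 (43.4% of Zfp regions). Since a region must lie in or nearest to a named gene to be a Zfp region, and most other regions have no named gene, these shares describe the choice of members as well as their positions. Zfp regions had a median width of 334.5 bp and a range of 240 to 992 bp in the FAD against WT table, and covered 71.38 kb in all. Their median distance to the closest start was 14370 bp, against 39713 bp for all regions, and 11 of them (5.85%, against 5.93% of all) lay within 2000 bp of a start.

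**Figure D1:**
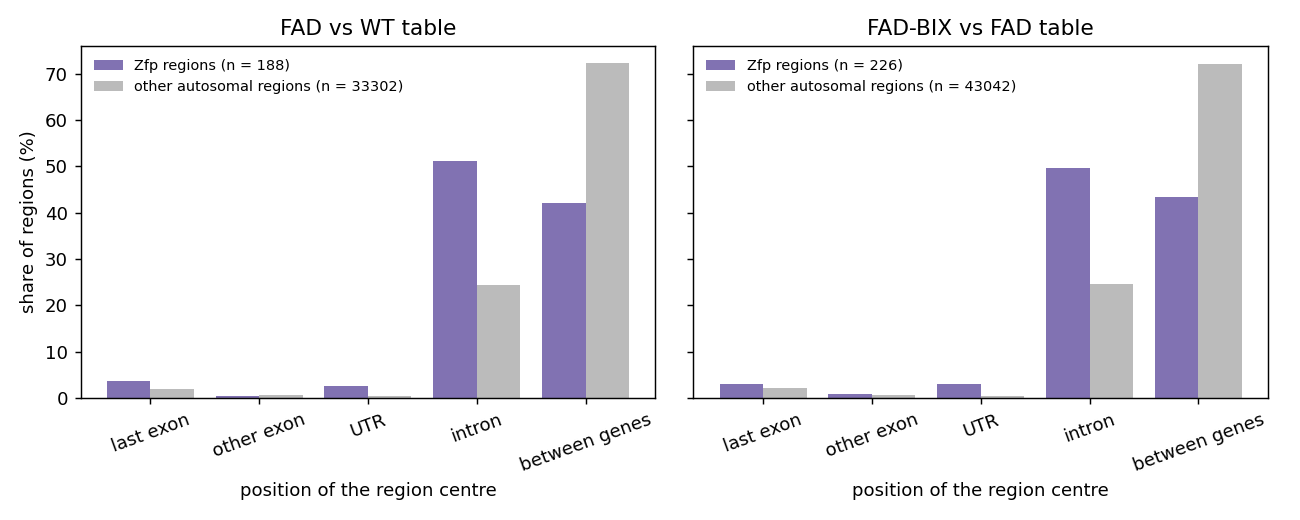
Share of regions (%) by position of the region centre, for Zfp regions (purple) and other autosomal regions (grey), in the tables of FAD against WT (left, 188 Zfp regions) and FAD-BIX against FAD (right, 226). Intron regions make up 51.1% and 49.6% of the Zfp regions, and last exons 3.72% and 3.10%.

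Last-exon regions were found at Zfp27, Zfp109, Zfp111, Zfp235, Zfp474, Zfp518b and Zfp606 in both tables. The Zfp606 region lay in the last exon of a transcript with no symbol, outside Zfp606. Zfp518b is the mouse counterpart of a protein reported to bind the H3K9 methyltransferase EHMT2. Which of these exons hold a finger array was not analysed here. ChIP counts at Zfp27 (chromosome 7, 29895042 to 29895358) were 17 and 22 in FAD, 4 and 5 in WT, then 7 and 15 in FAD-BIX. The FAD counts were above both WT counts, and scaled to library totals FAD-BIX 2 and FAD 1 were level at 2.16 RPM per kb. Zfp111 (chromosome 7, 24198274 to 24198605) had 9 and 18 in FAD, 10 and 11 in WT, then 17 and 9 in FAD-BIX, and its inputs held no read in either FAD mouse but 8 and 7 in WT. Counts at Zfp474 were 12 and 42 in FAD, 24 and 13 in WT, then 17 and 18 in FAD-BIX, and at Zfp518b they were 14 and 7, 2 and 10, and 2 and 7. At both genes the WT and FAD counts overlapped, with FAD ChIP 2 the highest library at Zfp474 and FAD ChIP 1 at Zfp518b. Counts at Zfp109 were 11 and 20 in FAD, 12 and 3 in WT, then 7 and 11 in FAD-BIX. An input of 0 reads still allows up to 3 reads at 95% confidence, so a region with none has no upper limit on its enrichment.

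The difference in ChIP over input between last-exon Zfp regions and the other Zfp regions did not pass the test. The value taken per mouse was the median over regions of log2 ChIP over input, each with 1 read added and scaled to the library total. The last-exon median was higher by 0.30 in WT 1, 1.74 in FAD 1 and 0.72 in FAD-BIX 2, and the difference was -0.79 in WT 2, -0.21 in FAD 2 and -0.50 in FAD-BIX 1. The mean difference was 0.21 ± 0.93 (SD, n = 6 mice), higher in 3 of 6, with a two-sided exact sign-flip permutation p of 0.656. Without FAD 1 the mean was -0.10.

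Zfp regions as a whole had a lower ChIP over input than the other autosomal regions in most mice, by an amount that did not pass the test. The difference of median log2 ChIP over input was -0.29 and -0.12 in the WT mice, -0.24 and 0.00 in FAD, then -0.21 and -0.17 in FAD-BIX. Its mean was -0.17 ± 0.10 (SD, n = 6 mice), below 0 in 5 of 6 mice, with an exact sign-flip permutation p of 0.0625, where 0.03125 is the smallest that 6 mice allow. Over the regions with a mean of at least 10 ChIP reads the mean difference was -0.22 and the exact permutation p 0.03125. On ChIP RPM alone, without input, it was 0.001, and over regions called in at least 2 libraries it was -0.02, lower in 3 of 6 mice. Without FAD 1 the log2 ratio difference was -0.16.

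**Figure D2:**
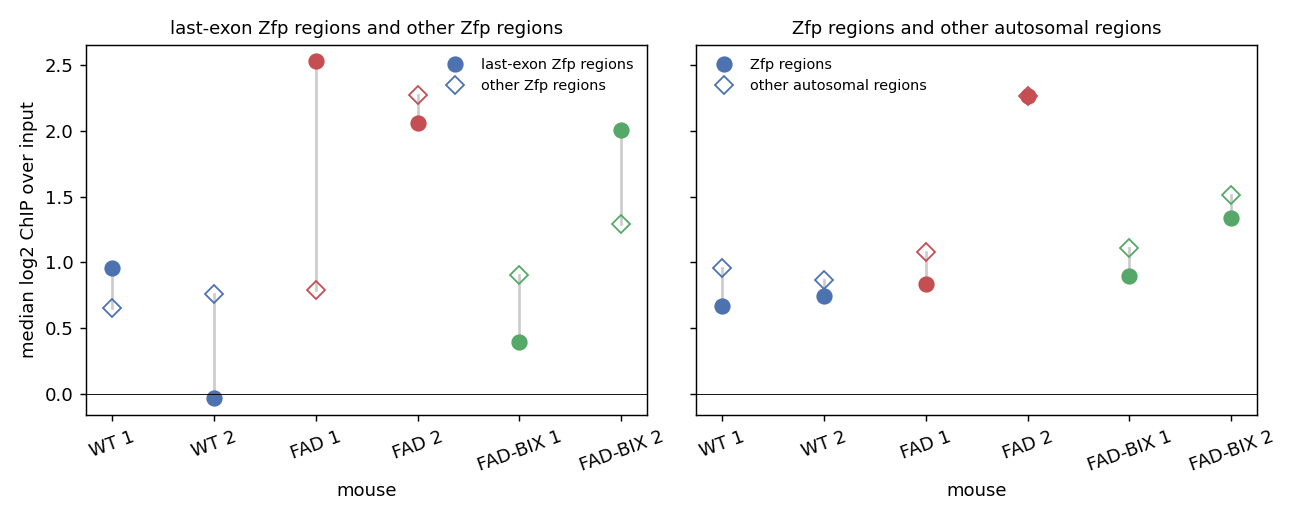
Median log2 ChIP over input in each mouse (6 mice, blue WT, red FAD, green FAD-BIX). Left, last-exon Zfp regions (filled) and other Zfp regions (open), which change order between mice. Right, Zfp regions (filled) and other autosomal regions (open), where Zfp regions lie lower in 5 of 6 mice.

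Most member genes lay within 500000 bp of another Zfp gene, as do most Zfp genes. Of 388 protein-coding Zfp genes on autosomes in RefSeq, 264 (68.0%) did, and these are called clustered here. Whether they are tandem copies was not analysed. A region of the FAD against WT table lay at 60 of these 264 (22.7%) and at 24 of the 124 single genes (19.4%). In the FAD-BIX against FAD table the shares were 67 of 264 (25.4%) and 32 of 124 (25.8%). Being in a cluster thus went with a difference of few percentage points in the share of genes with a region. Input reads were denser at clustered genes. Over their 96 regions of the first table the inputs held 0.839 and 0.747 RPM per kb in FAD, then 1.03 and 0.957 in WT. Over 88 regions of single genes they held 0.506 and 0.393, then 0.539 and 0.666. The ChIP libraries held 1.63 and 3.25 RPM per kb in FAD, then 1.40 and 1.84 in WT, at clustered genes. At single genes they held 1.36 and 2.56, then 1.34 and 1.26. Reads from near-identical copies cannot be assigned with certainty, and the sources used here do not say how reads with several matches were treated.

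Chromosome 4 held the most, with 44 of the 188 regions (23.4%, against 6.24% of all autosomal regions) in 16 genes. Zfp352, a gene known from early embryos, had 7 regions there, Zfp992 6, Zfp981 5 and Zfp980 4. Of these, 0, 1, 2 and 4 lay inside the named gene. Zfp600 had the region with the most reads (chromosome 4, 146173522 to 146174082, second intron). Its ChIP counts were 117 and 171 in FAD, 77 and 107 in WT, then 93 and 95 in FAD-BIX. Its inputs held 28 and 58, 95 and 68, and 67 and 52 reads, so the scaled input was above the ChIP in WT 1, where the ratio of ChIP to input was 0.788, and about level with it in FAD-BIX 1, at 0.994. Chromosome 7, with 94 RefSeq Zfp genes, had regions at only 10 of them.

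The member with the most regions was the long gene Zfp804b. It had 18 regions, all inside the gene, and 27 (26 inside) in the other table, which over its 575349 bp is 3.13 and 4.52 regions per 100 kb. Its ChIP reads summed to 260 and 367 in FAD against 262 and 287 in WT, with inputs of 45 and 43 and of 91 and 76. The group ranges overlapped, and the log2 fold change of FAD over WT was -0.20 ± 0.23 (SE). Over the regions of the other table the sums were 368 and 382 in FAD-BIX against 347 and 464 in FAD, a log2 fold change of 0.25 ± 0.20. Zfp804a, the counterpart of a human gene associated with schizophrenia, had 12 regions in each table, 5 of them inside the gene. Its sums were 170 and 215 in FAD against 137 and 193 in WT, and the groups overlapped. Zfp521, a regulator of neural progenitors, had 8 and 11 regions, and Zfp622 had 6 and 7, all outside the gene body. In contrast, 51 of 86 genes had 1 region.

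Members were also ranked by their lowest ChIP over input among the mice of a table. In the FAD against WT table the highest minimum over the 4 mice was 3.63-fold, at an intron region of Zfp882 (chromosome 8, 71912417 to 71912676), which rested on 7 and 4 ChIP reads in FAD against 17 and 5 in WT. The first-intron region of Zfp804a (chromosome 2, 82102265 to 82102676) was at least 3.26-fold over input in each FAD and WT mouse and 2.15-fold at its lowest in FAD-BIX, with 22 and 26 ChIP reads in FAD, 28 and 4 in WT, then 15 and 16 in FAD-BIX. Its inputs held 0 and 0, 3 and 0, and 3 and 4 reads. In the other table the highest minimum was 4.03-fold, at an intron region of Zfp729b (chromosome 13, 67595815 to 67596285) with 17 and 20 ChIP reads in FAD-BIX against 20 and 29 in FAD, while in WT its lowest value was 1.12-fold. The region of Zfp763 (chromosome 17, 33025660 to 33026652, first intron) had more reads, 33 and 27 in FAD-BIX, 72 and 58 in FAD, then 31 and 45 in WT, and its minimum was 3.49-fold over the FAD-BIX and FAD mice but 1.67-fold in WT. Here both FAD counts were above all others, and FAD ChIP 1 rather than FAD ChIP 2 was the highest.

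At the 130 Zfp regions with identical borders in both tables, reads can be set side by side in all 6 mice, on the scale of RPM per kb. Of these, 117 were called in FAD ChIP 2, 15 in FAD ChIP 1, 2 in WT ChIP 1 and 1 in WT ChIP 2, so most were found through a FAD call. A FAD level above WT or FAD-BIX is thus favoured by how the regions were found and is no independent result. The median over matched regions (143 at 50% reciprocal overlap) was 1.05 and 1.23 in WT, 1.35 and 3.15 in FAD, then 1.42 and 1.16 in FAD-BIX. FAD ChIP 1 thus lay beside the WT and FAD-BIX libraries, and FAD ChIP 2 alone stood high. Over the regions with identical borders, both FAD levels were above both WT levels at 37 of 74 Zfp genes, and the reverse held at 0. Both FAD-BIX levels were below both FAD levels at 31 of the 74, and the reverse held at 0. The same counts over all genes were not computed, so they do not show a trait of Zfp genes. At Zfp804b (11 regions) the levels were 1.27 and 1.31 in WT, 1.51 and 2.995 in FAD, then 1.48 and 1.34 in FAD-BIX. At Zfp521 (7 regions) they were 0.676 and 1.00, 1.66 and 2.70, and 1.47 and 1.29. At Zfp42, known as the stem cell marker Rex1, 5 regions gave 0.791 and 1.15 in WT, 1.38 and 3.09 in FAD, then 0.867 and 0.831 in FAD-BIX. Zfp27 (1 region) had 0.517 and 0.595, 2.16 and 3.35, and 1.08 and 2.16. These levels are scaled to library totals and cover only regions shared by the tables. Over all 7 of its regions in the FAD against WT table, Zfp42 had a log2 fold change of 0.06 ± 0.27 with TMM scaling.

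**Figure D3:**
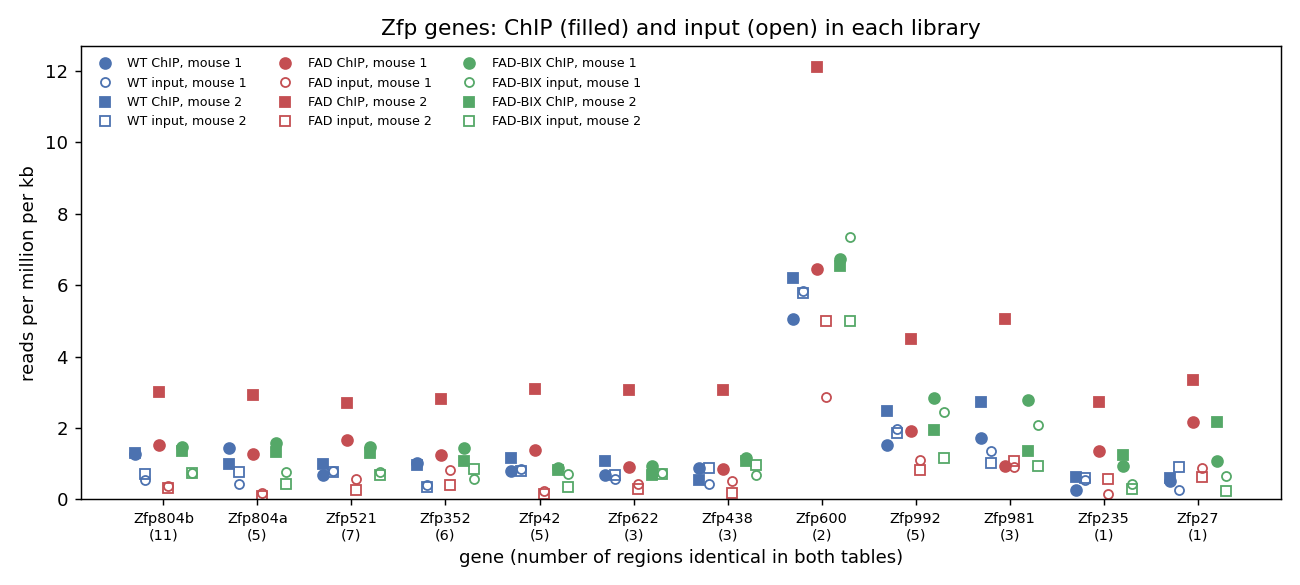
RPM per kb in each library at 12 Zfp genes, over the regions with identical borders in both tables (number in brackets), for ChIP (filled) and input (open) in WT (blue), FAD (red) and FAD-BIX (green), with circles for mouse 1 and squares for mouse 2. FAD ChIP 2 is highest at each gene shown, for example 2.995 at Zfp804b, and Zfp600 has input levels near its ChIP levels.

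No Zfp region passed the test between FAD and WT. ChIP counts were tested with edgeR's quasi-likelihood test, scaled by TMM and adjusted by Benjamini-Hochberg over all 27778 tested regions, of which 0 passed (0%). Of the 188 Zfp regions, 151 passed the filter on low counts, and their smallest adjusted p was 0.832. At an unadjusted p under 0.05, 3 Zfp regions were higher and 5 lower in FAD, against 0.918% and 4.97% of all tested regions. The median log2 fold change was 0.05 over tested Zfp regions and 0.01 over all. TMM centres the folds near 0. With library totals the median was 0.69 for Zfp and 0.64 for all regions, so Zfp regions kept close to the rest on either scale. DESeq2 and limma on ChIP over input also gave 0 calls among Zfp regions.

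The regions with the smallest unadjusted p differed by several-fold on few reads. Besides Zfp27, whose log2 fold change was 1.69 ± 0.71 (SE), the higher ones were a region near Zfp235 (chromosome 7, 24150972 to 24151447), with 16 and 27 reads in FAD against 3 and 8 in WT, and one near Zfp869 (chromosome 8, 69696411 to 69697015), with 23 and 33 against 6 and 12. In each case the counts did not overlap. On levels scaled to library totals, a different measure, that order held at 37 of 74 Zfp genes over regions identical in both comparisons, and the reverse at 0. Most of those regions were called in FAD. How often the order held over all tested regions was not computed. Zfp869 had a log2 fold change of 1.22 ± 0.53, and 1.10 without FAD 1. The lower ones included an intron region of Zfp119a (chromosome 17, 55873384 to 55873848), with 14 and 17 reads in FAD against 26 and 28 in WT, and one in Zfp804b (chromosome 5, 6857516 to 6857917), with 15 and 8 against 25 and 28. The log2 fold change of the Zfp804b region was -1.53 ± 0.58. The region near Zfp992 at 146436448 to 146436909 had 11 and 2 reads in FAD against 20 and 34 in WT, a log2 fold change of -2.31 ± 0.77. Its inputs held 11 and 0 reads in FAD against 13 and 1 in WT. Without FAD 1 the median was 0.16 for Zfp and 0.01 for all regions, and 119 regions passed in all, 118 of them lower in the 1 FAD library left, among them this one (-4.41, adjusted p = 0.00978) and a region near Zfp988 (chromosome 4, 147297332 to 147297726), at -7.81 with an adjusted p of 0.00263 by the same edgeR test. The Zfp988 region had 16 and 0 reads in FAD against 7 and 40 in WT, so its direction rested on FAD ChIP 2 and WT ChIP 2.

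Summed per gene, 74 Zfp genes were tested and none passed, of 3757 genes of which 0 passed (0%). At an unadjusted p under 0.05, 2 Zfp genes were higher and 3 lower, against 1.33% and 3.27% of all genes. The higher genes were Zfp27, at a log2 fold change of 1.71 ± 0.71, and Zfp235 at 1.25 ± 0.53, with 29 and 50 reads in FAD against 7 and 18 in WT. The lower ones were Zfp72 at -1.07 ± 0.39, with 18 and 37 reads against 39 and 47, Zfp608 at -1.42, with 11 and 24 against 52 and 16, and Zfp119a at -1.17. Their adjusted p was 0.929 by edgeR. Zfp608 counts overlapped between the groups, and 1 WT library held most of its reads. The median log2 fold change of tested Zfp genes was 0.10, against 0.00 over all genes.

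**Figure D4:**
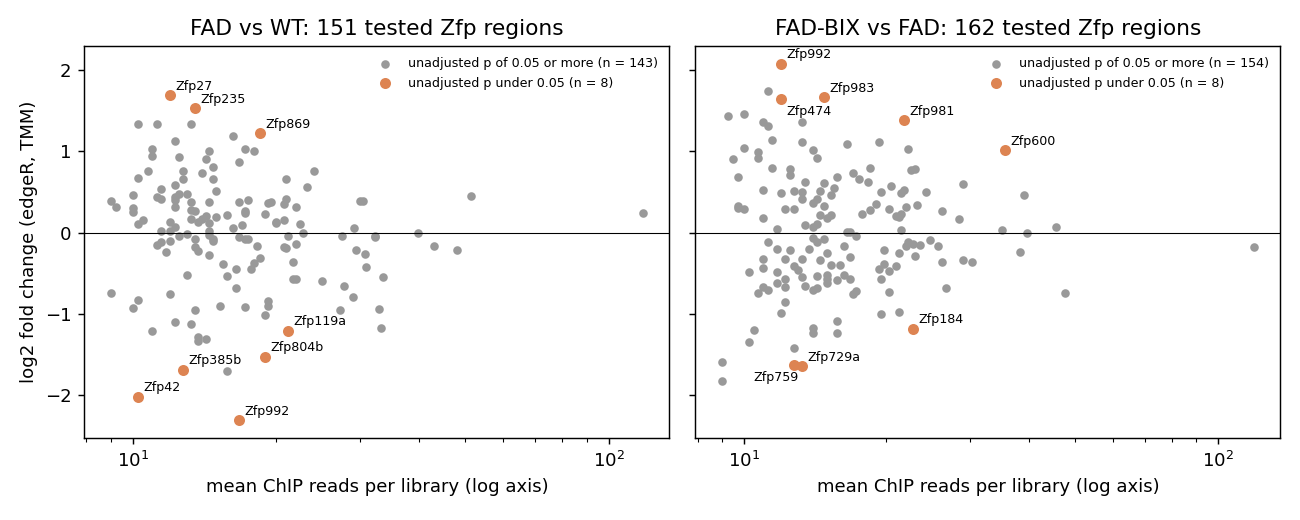
Log2 fold change (edgeR, TMM) against mean ChIP reads per library (log axis) for each tested Zfp region, FAD against WT (left, n = 151) and FAD-BIX against FAD (right, n = 162). Orange points have an unadjusted p under 0.05 (8 in each panel) and none passed after adjustment. The folds narrow around 0 as reads increase.

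No Zfp region passed between FAD-BIX and FAD either, and 0 of all 31055 tested regions did (0%). Of 226 Zfp regions 162 were tested, with a smallest adjusted p of 0.897 by edgeR. At an unadjusted p under 0.05, 5 were higher and 3 lower in FAD-BIX, against 3.93% and 1.18% of all regions. The median log2 fold change was 0.00 for Zfp regions and 0.03 for all. With library totals it was -0.36 and -0.34. DESeq2 and limma on ChIP over input also gave 0 calls among Zfp regions. Without FAD 1 the medians were -0.12 and 0.10, again with 0 Zfp regions called. The higher regions lay in the chromosome 4 cluster and elsewhere. One near Zfp981 (146495424 to 146495690) had 25 and 34 reads in FAD-BIX against 22 and 6 in FAD, a log2 fold change of 1.38 ± 0.60. One in Zfp600 (146163736 to 146164127) had 47 and 39 against 28 and 28, at 1.01 ± 0.44, and turned to -0.13 when ChIP over input was compared in limma. The lower ones included an intron region of Zfp184 on chromosome 13 (21957377 to 21957885), with 13 and 9 reads in FAD-BIX against 24 and 45 in FAD, at -1.18 ± 0.53. At Zfp184 the WT counts were 27 and 21, so FAD ChIP 1 lay within the WT range. Intron regions of Zfp804b (7110307 to 7110693, and 7314144 to 7314850) had 6 and 9 reads against 20 and 28, and 7 and 16 against 23 and 39, and did not overlap between groups. They were named for the next smallest p, with unadjusted edgeR values of 0.0625 and 0.0928, and their inputs held 1 to 5 reads. Both regions had identical borders in both comparisons, where most regions were called in FAD. How often all tested regions kept such an order was not computed. Summed over all 27 of its regions, Zfp804b was at 0.25 ± 0.20 (SE), the other direction.

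Among Zfp genes, 80 were tested between FAD-BIX and FAD and none passed, of 4052 genes of which 0 passed (0%). At an unadjusted p under 0.05, 0 Zfp genes were higher and 3 lower, against 2.86% and 1.83% of all genes. Zfp42 had the smallest p. Its 5 regions, all outside the gene, held 32 and 33 ChIP reads in FAD-BIX against 62 and 116 in FAD, with inputs of 19 and 9 and of 6 and 4. The log2 fold change was -1.05 ± 0.34, with an adjusted p of 0.874 by edgeR, and -1.20 without FAD 1. Both FAD-BIX counts were below both FAD counts. On levels scaled to library totals, that order held at 31 of 74 Zfp genes over regions identical in both comparisons, and the reverse at 0. Most of those regions were called in FAD, which favours a lower FAD-BIX level. The share over all tested genes was not computed. Zfp759 was at -1.69 and Zfp184 at -1.24. Those with the smallest p in the other direction, Zfp788 at 1.29, Zfp451, a SUMO ligase, at 1.40 and Zfp488, a factor of oligodendrocyte differentiation, at 1.67, had an unadjusted p above the threshold. Zfp488 held 29 and 4 reads in FAD-BIX against 11 and 1 in FAD, so the groups overlapped, and without FAD-BIX ChIP 1 it was at -0.47. Both comparisons use the same FAD libraries, so their values for 1 gene are not independent.

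By position, the tested Zfp regions between FAD and WT had a median log2 fold change of 0.27 in last exons (n = 6), 0.25 in UTRs (n = 4), -0.04 in introns (n = 80) and 0.14 between genes (n = 60). Between FAD-BIX and FAD the medians were -0.31 (n = 6), -0.46 (n = 5), 0.07 (n = 85) and -0.10 (n = 64). By the authors' deposited table, 5 of 188 Zfp regions (2.66%) had p under 0.05 between FAD and WT, all 5 higher, against 2.67% of all regions, of which 722 were higher and 180 lower. For FAD-BIX against FAD the authors' deposited table gave 5 of 226 (2.21%), against 2.09% of all regions, and its q-value was 1 throughout.

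Partners of KRAB zinc-finger proteins and H3K9 enzymes, a list of 34 genes, had few regions themselves. Between FAD and WT 5 genes were tested and none passed or had an unadjusted p under 0.05, while 1 of the 5 tested regions of the list was higher at that threshold. The median log2 fold change was 0.92, against 0.00 over all genes. Atf7ip, which stabilises the H3K9 methyltransferase SETDB1, was at 1.28 ± 0.75, with 10 and 20 reads in FAD against 5 and 4 in WT. Ehmt1, a target enzyme of BIX01294, was at 0.84 ± 0.65, with 14 and 22 against 8 and 7, and the demethylase gene Kdm4c was at 1.33 ± 0.68, with 13 and 32 against 4 and 9. At these genes and at Hdac2 (28 and 42 against 13 and 15) the counts did not overlap between groups. At Atf7ip2 they did, with 9 and 25 against 3 and 12. On levels scaled to library totals, a different measure, both FAD levels lay above both WT levels at 37 of 74 Zfp genes, and the reverse held at 0. Those levels cover regions identical in both comparisons, most of them called in FAD. The share over all genes was not computed. Of all regions between FAD and WT, 64.7% were called in FAD ChIP 2, so higher FAD counts are favoured by how regions were found. Between FAD-BIX and FAD 6 genes were tested, none passed, and the median was -0.02. Ehmt1 was at -0.03 ± 0.60, with 24 and 12 reads in FAD-BIX against 22 and 25 in FAD. Regions of the related Zbtb and Zkscan families, 4 and 8 tested between FAD and WT and 6 and 7 between FAD-BIX and FAD, also gave no call, and no Zscan region was tested.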

How the data were processed

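The authors deposited, per region and library, a count of reads, RPM, a ChIP over input ratio, and a log2 fold change, p-value and q-value per comparison. Per the submitters' processing notes, the tools included BWA 0.7.12 and MACS2 2.1.0, with mm9 as the build. However, 97.8% and 99.1% of matched members lay at their RefSeq gene in GRCm38.p6, so coordinates are given as GRCm38. Regions were reduced to 1 per position. All members and lists were chosen with earlier results of these data known. Counts as deposited were tested with edgeR 4.0.16 (R 4.3.3, TMM, default low-count filter) over all regions or genes, with DESeq2 1.42.0, limma 3.58.1 on ChIP over input, other scalings and left-out libraries as alternatives, and the steps were tested on simulated data. In it, 16.9% of regions changed 4-fold between FAD and WT were recovered, and 65.6% of genes. Between FAD-BIX and FAD the shares at 4-fold were 8.93% and 61.9%. At 2-fold 0% of regions were recovered in either comparison, and 11.3% and 6.25% of genes. SE is the absolute log2 fold over the root of F. Per-mouse medians (pseudocount 1 read) were tested by exact sign flips in SciPy 1.17.1. Named features were, per comparison, the 3 regions (of at least median reads) and 3 genes with the smallest p in each direction, the 5 genes with most regions and with most reads, the 5 regions with the highest minimum enrichment, last-exon regions, and any region called in 3 libraries. Others with an unadjusted p under 0.05, and the Zfp518a, Zfp763 and Zfp988 regions, were chosen after their values were seen. Deviations from the group mean, of samples with the same number in the labels, correlated at 0.06, 0.07, -0.04 and -0.05 in the 4 fits. With 2 mice a group these values cannot decide whether the numbers mark a pairing. Numbers are used here only to name mice. Separate mice are the replicates. The limit of 3 reads covers counting error only, whereas SE also includes the variation between mice estimated by edgeR. SD is over mice.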

Additional observations from a re-analysis of the deposited data

How the results depend on the processing

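Of 264 alternative values of 24 named regions and genes, 261 kept their direction and 4 passed the threshold. Those that reversed were Zfp72 with library totals and without FAD 1 (0.081), Zfp600 in limma on ChIP over input (-0.128) and Zfp488 without FAD-BIX ChIP 1 (-0.465, against 4.501 without FAD ChIP 1). The named features were picked for their smallest p in the main fit of these same counts, so a kept direction is no independent support. The last-exon difference turned to -0.001 with a pseudocount of 5, to -0.105 on RPM alone and to -0.099 without FAD 1, and ranged from -0.099 to 0.407 over left-out mice. The lower ratio of Zfp regions was -0.221 at a mean of at least 10 reads, 0.001 on RPM alone, -0.017 over regions called in at least 2 libraries and -0.208 to -0.15 over left-out mice. The cause was not tested. No last-exon value was possible for regions called in at least 2 libraries, since 1 table had none.

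Counts of calls over all regions between FAD and WT were 2 with library totals, 12 with library totals and without FAD 1, and 0 to 119 over left-out libraries (Zfp 0 to 2). Over all genes they were 1 in DESeq2, 2 with library totals, 557 with library totals and without FAD 1 (Zfp 13) and 0 to 31 over left-out libraries. Between FAD-BIX and FAD, regions gave 4 with library totals, 17 with no filter, 17 with library totals and without FAD 1, and 12 to 26 over left-out libraries. Genes gave 3, 11, 74 (Zfp 1) and 0 to 22. Without FAD 1 the FAD group is FAD ChIP 2 alone, in which most members were called, so on library totals the direction of the 13 Zfp genes and the 1 Zfp gene follows from how regions were chosen and supports nothing. Library totals without FAD 1 was chosen after seeing the data. With the replicate number as a block, 4 genes passed between FAD and WT and 7 between FAD-BIX and FAD, with 0 Zfp regions or genes in either comparison. Where 1 library was left out, the lone library of its group was assumed to vary like the others. Low read counts limit every value here, since a region held few ChIP reads and often no input read.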
